A study of Homo sapiens with 4 samples.

Results

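GALNT1, GALNT3, GALNT6 and GALNT14 encode polypeptide N-acetylgalactosaminyltransferases, and they were examined as the 4 genes whose array probes carry these symbols, out of 14006 named genes. Each of the 4 had 1 probe, so no second probe was there to compare. RNA from 4 cultures of 2 human prostate cancer lines was hybridised to Affymetrix whole-transcript arrays, 1 array per culture. PC3-L and PC3-H are PC3 cells, which grow without androgen and came from a bone metastasis, separated with the antibody IIH6C4 into cells low and high for the laminin-binding glycan. LNCaP-AI is labelled as LNCaP cells that became androgen-independent during culture in charcoal-stripped serum, and is labelled low for that glycan; its description also names medium conditioned by perineural cells. LNCaP is the androgen-dependent parent line, from a lymph node metastasis, and is labelled high. PC3-L and LNCaP-AI are labelled as highly motile and invasive, and PC3-H and LNCaP as the opposite. All cultures were grown in RPMI1640 with antibiotics and serum. No group had a replicate, and the labels do not say how many clones a culture held.

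Mucin-type O-glycans begin when an enzyme of the GALNT family moves N-acetylgalactosamine from UDP-GalNAc onto a serine or threonine of a protein passing through the Golgi. The family is large, its members prefer different acceptor peptides, and other enzymes then extend the first sugar into longer chains. This is a different pathway from the O-mannosyl glycan that IIH6C4 recognises on alpha-dystroglycan. GALNT1 is a broadly expressed member of the family, GALNT3 and GALNT6 are close relatives of each other, and GALNT14 belongs to a branch with GALNT2 and GALNT16.

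GALNT3 was lower and GALNT14 higher on the low-glycan array in both pairs, GALNT1 was higher in the PC3 pair alone by a 2-fold limit, and GALNT6 was higher in the LNCaP pair alone by that limit. The sequences just upstream of the annotated starts of GALNT3 and GALNT14, the pair that went opposite ways, are shown as a description. GALNT3 had 1 such window and GALNT14 had 2, and the array value of GALNT14 does not say which start was used. The sequences are from RefSeq on GRCh38.p14, minus strand, 250 bases ending at the base before the start, with the E-box CACCTG in capitals. The first lies at chr2:165794248-165794497, the second at chr2:31138441-31138690, and the third, another GALNT14 start, at chr2:31129641-31129890.
GALNT3: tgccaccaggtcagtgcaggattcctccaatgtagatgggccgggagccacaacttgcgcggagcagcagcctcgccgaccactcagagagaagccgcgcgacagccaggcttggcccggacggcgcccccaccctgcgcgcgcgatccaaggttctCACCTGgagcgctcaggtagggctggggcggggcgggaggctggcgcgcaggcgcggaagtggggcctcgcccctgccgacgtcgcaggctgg
GALNT14, upstream start: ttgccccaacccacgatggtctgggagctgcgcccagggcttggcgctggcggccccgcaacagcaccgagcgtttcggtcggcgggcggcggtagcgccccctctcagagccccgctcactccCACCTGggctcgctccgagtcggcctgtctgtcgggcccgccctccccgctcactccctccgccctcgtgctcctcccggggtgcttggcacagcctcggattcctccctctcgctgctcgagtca
GALNT14, downstream start: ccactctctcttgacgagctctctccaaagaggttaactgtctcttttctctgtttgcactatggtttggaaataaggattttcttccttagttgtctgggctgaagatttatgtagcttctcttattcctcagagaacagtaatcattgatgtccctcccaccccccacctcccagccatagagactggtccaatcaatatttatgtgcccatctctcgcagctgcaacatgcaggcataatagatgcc
The hexamer CAGGTG, or CACCTG on the other strand, was sought in windows of 300 bases, from 250 before to 50 after each start. It is a form of the E-box CANNTG that factors of the ZEB and SNAI families are known to bind. GALNT3 had it 93 bases before the start and again 5 bases after it, and the upstream GALNT14 window had it 126 bases before the start. The downstream GALNT14 window and the 3 windows of GALNT1 did not hold these letters. GALNT6 had no promoter window in the source used and was not searched. Of all 35116 promoter windows, 20.6% held the hexamer, so a match is common and is a description only. The GALNT3 window held 28 CpG dinucleotides, the upstream GALNT14 window 35 and the downstream one 2, against a median of 14 over all windows.

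Before any comparison, the line labels were checked against line markers. The intensity of KLK3, the gene of prostate-specific antigen, was 63.4 in PC3-L, 59.0 in PC3-H, 61.2 on LNCaP-AI and 1781 on LNCaP. On the array labelled LNCaP-AI all 5 measured LNCaP markers were within 2-fold of PC3-L and 0 within 2-fold of LNCaP, and of 7 measured PC3 markers 6 were within 2-fold of PC3-L. The PC3 marker past 2-fold was CXCL8, at 46.9 against 497 in PC3-L. Of all genes past the filter, 2.79% of 10942 were past 2-fold between that array and PC3-L. Between it and LNCaP, 10.6% of 11135 were. Closeness to PC3-L was thus general and not a trait of the markers. Across all probes the log2 values of the array labelled LNCaP-AI had a correlation of 0.961 with PC3-L, against 0.885 with LNCaP. PC3-H had 0.899 with PC3-L, 0.900 with LNCaP and 0.926 with the array labelled LNCaP-AI. By this measure PC3-H was no closer to PC3-L than to LNCaP, though its KLK3 value was near that of PC3-L. These correlations describe arrays over probes that are not independent. The array labelled LNCaP-AI goes against its line label, so every direction drawn from it below is that of the array labelled LNCaP-AI. For the 4 genes, GALNT18 and the UDP-GalNAc supply list, PC3-L values against LNCaP are given beside it. The free-text descriptions give PC3-H and PC3-L the opposite glycan levels from the titles and source names, which were followed here. Fibroblast markers were near the bottom of the range, with 2 measured genes summing to between 67.3 and 76.1 on the 4 arrays, and 4 endothelial genes summed to between 170 and 198. The 3 measured leukocyte markers summed to 733 in PC3-L against 405 in PC3-H, and to 659 on the array labelled LNCaP-AI against 210 on LNCaP. Nearly all of that gap was the lysosomal gene CD68, at 630 in PC3-L against 290 in PC3-H and 553 on the array labelled LNCaP-AI against 102 on LNCaP, while CD14 lay between 26.9 and 32.1 and NKG7 between 74.6 and 88.0. The 3 perineurial and Schwann cell markers summed to 125 in PC3-L against 174 in PC3-H and to 140 on the array labelled LNCaP-AI against 269 on LNCaP, with ERBB3, which epithelial cells also express, as the gene that differed. The part of these cells in the results below was not tested.

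GALNT3 is an enzyme that glycosylates the phosphate hormone FGF23 and is mostly made by epithelial cells. It had an intensity of 32.6 in PC3-L against 153 in PC3-H, and of 28.0 on the array labelled LNCaP-AI against 86.3 on LNCaP. Both low-glycan arrays were thus below both high-glycan arrays. The share of all genes with such an order was not counted. On the log2(intensity + 1) scale used for all differences here, GALNT3 differed by −2.19 in the PC3 pair, 4.58-fold lower, and by −1.59 in the LNCaP pair, 3.01-fold lower. On PC3-L and on the array labelled LNCaP-AI it lay below the 40th percentile of all probes, 33.6 and 34.5 there, so these folds may be understated. Genes were kept where the higher value of a pair reached that percentile, and GALNT3 passed this filter through the high-glycan array of each pair, where it was high. Against LNCaP the PC3-L array was also lower in GALNT3, with a log2 difference of −1.38. In bulk RNA, fewer cells that make a transcript and less transcript per cell cannot be told apart.

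GALNT14 is known for O-glycosylation of the TRAIL death receptors. Its intensity was 177 in PC3-L against 40.4 in PC3-H, and 115 on the array labelled LNCaP-AI against 48.3 on LNCaP. Both low-glycan arrays were above both high-glycan arrays, the reverse of GALNT3, and the share of all genes with this order was not counted either. The log2 difference was 2.10 in the PC3 pair, 4.30-fold higher, and 1.24 in the LNCaP pair, 2.36-fold higher. It ranked 79 from the highest of 11126 genes past the filter for PC3, and 433 of 11135 in the LNCaP pair. PC3-L was 3.61-fold above LNCaP for GALNT14, and the array labelled LNCaP-AI was 1.53-fold below PC3-L.

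GALNT1 had an intensity of 318 in PC3-L against 111 in PC3-H, which is 2.86-fold higher, with a log2 difference of 1.51. In the LNCaP pair its direction was the other, at 170 on the array labelled LNCaP-AI against 248 on LNCaP, with a log2 difference of −0.55 that stayed within 2-fold. The order of its levels, from the highest, was PC3-L, LNCaP, LNCaP-AI and PC3-H, so low- and high-glycan arrays were interleaved. Neighbours in that order were all within 2-fold of each other, with log2 differences of 0.36 for PC3-L over LNCaP, −0.55 for LNCaP-AI over LNCaP and 0.61 for LNCaP-AI over PC3-H. GALNT1 also had the largest difference of the 4 genes between the array labelled LNCaP-AI and PC3-L, at −0.90.

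GALNT6, reported to glycosylate fibronectin and the mucin MUC1, had intensities of 296 in PC3-L and 238 in PC3-H, a log2 difference of 0.32. It was 215 on the array labelled LNCaP-AI against 83.6 on LNCaP, 2.55-fold higher, with a log2 difference of 1.35. LNCaP stood apart as the 1 low array for this gene, and the other 3 arrays were within 2-fold of each other. PC3-H, which has the same high-glycan label as LNCaP, was well above it, and the log2 difference of LNCaP over PC3-H was −1.49. PC3-L was 3.52-fold above LNCaP. GALNT3 and its close relative GALNT6 therefore had opposite signs in both pairs, though for GALNT6 the PC3 difference was small.

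**Figure D1:**
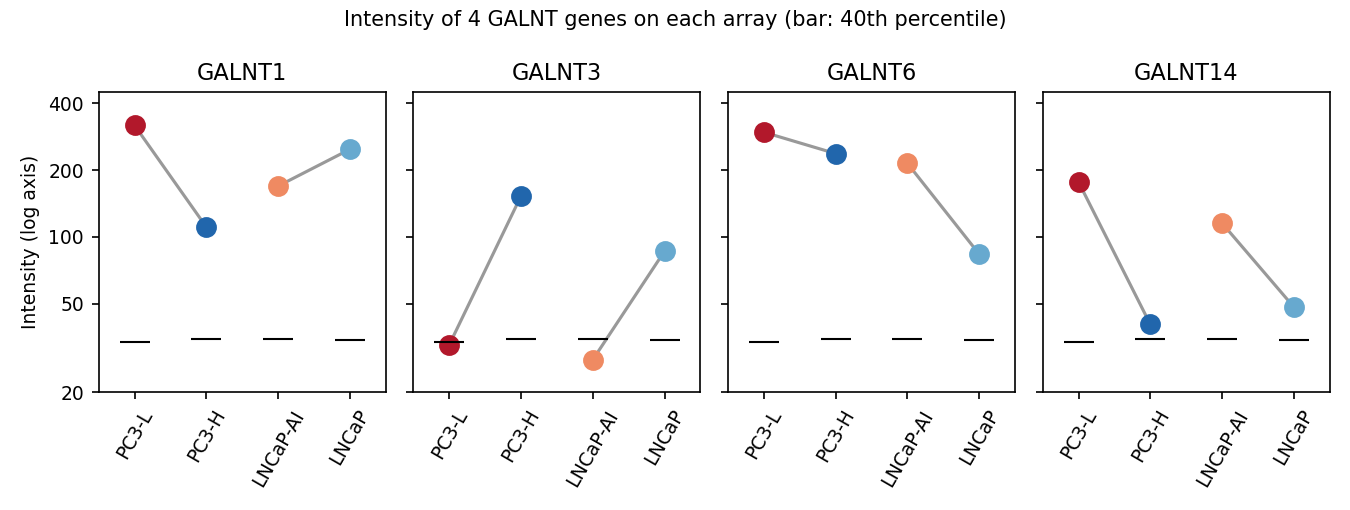
Intensity, on a log axis, of GALNT1, GALNT3, GALNT6 and GALNT14 on each of the 4 arrays, with grey lines joining the arrays of a pair and short black bars at the 40th percentile of each array. GALNT3 sits at 32.6 and 28.0 on the 2 low-glycan arrays against 153 and 86.3 on the high ones, and GALNT14 shows the reverse order.

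Of the 4 genes, 2 were past 2-fold higher and 1 lower in PC3-L than in PC3-H, where 12.3% of 11126 genes past the filter were past 2-fold in either direction, 8.58% higher and 3.77% lower. On the array labelled LNCaP-AI against LNCaP 2 were higher and 1 lower, where 10.6% of 11135 genes were past 2-fold, 5.45% higher and 5.13% lower. The genes were chosen with their differences known, so nothing is read from these counts against the background. GALNT14 was past 2-fold higher in both pairs, as were 2.2% of 10755 genes past the filter in both, and GALNT3 lower in both, as were 1.06%.

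The low-glycan arrays were also compared with the high-glycan ones in 1 limma fit over 11522 genes, adjusting for line, which left 1 residual degree of freedom. GALNT3 had a log2 difference of −1.89 ± 0.28 (SE), with an adjusted p of 0.24, and was lower on the low-glycan array in 2 of 2 lines. GALNT14 had 1.67 ± 0.32, with an adjusted p of 0.28, and was higher in 2 of 2. These are lines as labelled, and the array labelled LNCaP-AI resembled PC3-L, so they are not counted as independent. GALNT6 had 0.83 ± 0.35 with an adjusted p of 0.63, and GALNT1 0.48 ± 0.55 with an adjusted p of 0.98. In the fit without the line covariate, the difference of GALNT6 was 0.087 when LNCaP was left out and 1.58 when PC3-H was. None of the 4 passed 0.05 after Benjamini-Hochberg adjustment over all genes. The fit called 0 genes in all (0%), with 1016 at an unadjusted p under 0.05. With an intensity trend in the limma variance, GALNT3 passed with an adjusted p of 0.024 and GALNT14 did not, at 0.06; 115 genes (0.998%) were then called. GALNT3 entered the fit through its values on the high-glycan arrays, so little is read from that call.

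The rest of the family gives the setting for these 4. Of 20 GALNT family genes 19 had a named probe and 14 passed the filter in each pair. On PC3-L 2 of the 14 were past 2-fold higher and 3 lower than in PC3-H, against 8.58% and 3.77% of all genes past the filter, with a median log2 difference of −0.04, against −0.02 over all genes. On the array labelled LNCaP-AI 3 were higher and 2 lower than on LNCaP, against 5.45% and 5.13% of all genes, with a median of 0.19 against 0.00 over all genes. Between the array labelled LNCaP-AI and PC3-L 0 of 13 were past 2-fold, where 2.79% of 10942 genes were.

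In the branch of GALNT14, GALNT16 had the same directions, with intensities of 98.9 in PC3-L against 49.6 in PC3-H and 85.9 on the array labelled LNCaP-AI against 36.9 on LNCaP. Its log2 differences were 0.98 and 1.20, the first just within 2-fold. GALNT2, the third gene of that branch and a widely expressed enzyme, went otherwise. It was 244 in PC3-L against 565 in PC3-H, with a log2 difference of −1.21, and 247 on the array labelled LNCaP-AI against 240 on LNCaP. PC3-H was the 1 high array for GALNT2, and the other 3 lay between 240 and 247. A second, dimmer GALNT2 probe, between 38.4 and 47.2 on the 4 arrays, was highest in PC3-H too but stayed within 2-fold.

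GALNT18 was the 1 other family gene past 2-fold the same way in both pairs. Its intensity was 49.6 in PC3-L against 119 in PC3-H, and 45.5 on the array labelled LNCaP-AI against 95.2 on LNCaP, with log2 differences of −1.25 and −1.05. Like GALNT3, it was lower on both low-glycan arrays than on either high one, an order whose share of all genes was not counted. For PC3-L over LNCaP its log2 difference was −0.93, within 2-fold. In the limma fit GALNT18 had an adjusted p of 0.31 and GALNT16 of 0.33, so neither passed. With a pseudocount of 16, GALNT16 and GALNT18 were both within 2-fold in the LNCaP pair.

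Of the family genes past the filter, GALNT7, which adds sugars to peptides that already carry some, had log2 differences of 0.95 in the pair from PC3 and 0.35 in the LNCaP pair. GALNT12 was 107 in PC3-L and 120 in PC3-H, and 68.5 on the array labelled LNCaP-AI against 45.4 on LNCaP; like GALNT6, it was lowest on LNCaP. GALNT11 had 0.55 and −0.41, the same signs as GALNT1. GALNT8, GALNT9, GALNT10 and GALNT17 lay between −0.10 and 0.22 in both pairs. GALNT5, GALNT13, GALNT15, GALNTL5 and GALNTL6 did not pass the filter, and their intensities lay between 22.0 and 29.6 on the 4 arrays. GALNT4 had no probe under its own name, and the probe of the read-through gene POC1B-GALNT4, which shares its sequence, was 128 in PC3-L against 77.8 in PC3-H and 94.9 on the array labelled LNCaP-AI against 80.1 on LNCaP.

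**Figure D2:**
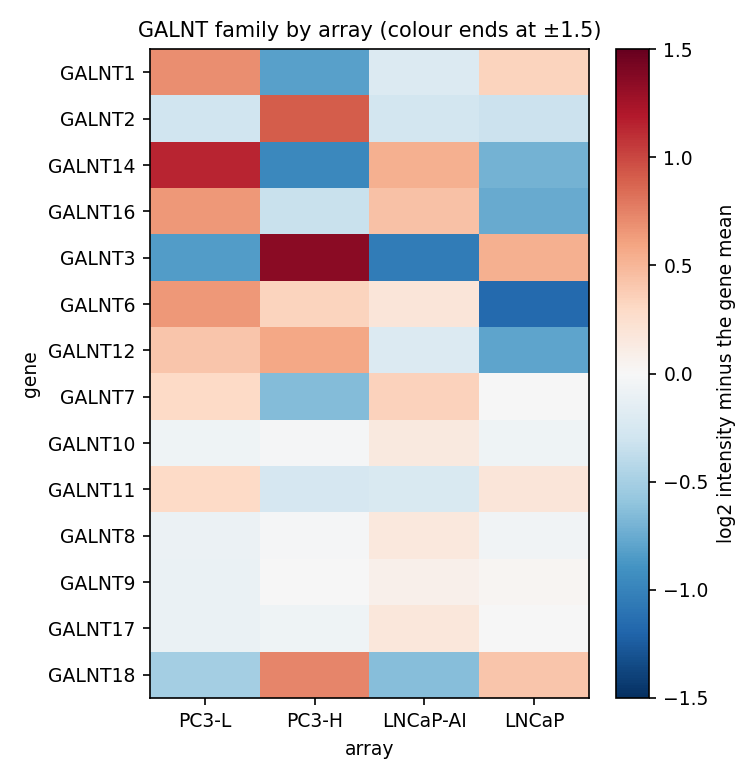
Each cell is the log2(intensity + 1) of a GALNT family gene (down) on an array (across) minus that gene's mean over the 4 arrays, for the 14 genes past the filter. GALNT3 and GALNT18 are above their mean in PC3-H and LNCaP, and GALNT14 and GALNT16 in PC3-L and LNCaP-AI.

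**Figure D3:**
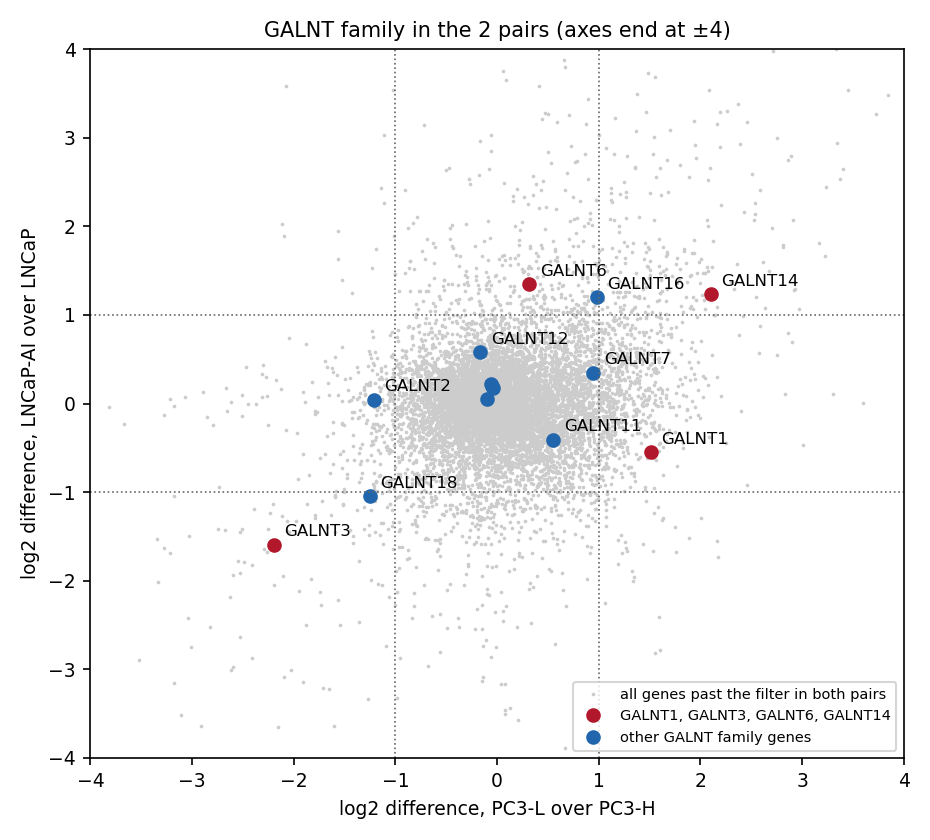
The log2 difference of PC3-L over PC3-H (across) and of the array labelled LNCaP-AI over LNCaP (up), with grey points for all genes past the filter in both pairs, dotted lines at 2-fold and axes ending at 4 in either direction. GALNT14 lies beyond 2-fold at the upper right (2.10 and 1.24), GALNT3 and GALNT18 at the lower left, and GALNT1 at the lower right of the origin (1.51 and −0.55).

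The donor sugar UDP-GalNAc is made from UDP-GlcNAc, so the enzymes that supply these were read next; 4 of 9 had a named probe. UAP1, which makes UDP-GlcNAc, was 1016 in PC3-L against 330 in PC3-H, 3.07-fold higher, and 355 on the array labelled LNCaP-AI against 888 on LNCaP, 2.50-fold lower. GFPT1, the enzyme that commits fructose 6-phosphate to this route, was 579 in PC3-L against 395 in PC3-H, and 241 on the array labelled LNCaP-AI against 508 on LNCaP, 2.11-fold lower. The arrays thus had the same order for UAP1 as for GALNT1, with PC3-L highest, then LNCaP, LNCaP-AI and PC3-H. GFPT1 had another order, with PC3-H above LNCaP-AI, and the share of all genes with the order of GALNT1 was not counted. GALK2 and GNPNAT1 were within 2-fold in both pairs. Over the list, 1 of 4 was past 2-fold higher and 0 lower in the PC3 pair (median log2 difference 0.32), where 8.58% of all genes were higher and 3.77% lower. In the LNCaP pair 0 were higher and 2 lower (median −0.74), where 5.45% and 5.13% of all genes were. For PC3-L over LNCaP 0 were higher and 0 lower (median 0.19), where 804 of 11111 genes were higher and 501 lower.

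Of 13 listed enzymes that extend the first sugar, 1 had a named probe. This was C1GALT1C1, the chaperone of the core 1 galactosyltransferase, at 85.2 in PC3-L against 54.4 in PC3-H, and 68.6 on the array labelled LNCaP-AI against 68.5 on LNCaP. It stayed within 2-fold in both pairs. The step after GALNT action is therefore almost unmeasured in the named probes.

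Of 24 listed mucins and mucin-like carriers 5 had a named probe, and no MUC gene was among them. VLDLR, a lipoprotein receptor with an O-glycosylated stretch, was 153 in PC3-L against 35.7 in PC3-H (4.20-fold higher), and 89.3 on the array labelled LNCaP-AI against 77.2 on LNCaP. CD44 is a hyaluronan receptor that carries O-glycans, and was also among the PC3 markers of the line check. It was 318 in PC3-L against 239 in PC3-H, and 297 on the array labelled LNCaP-AI against 23.9 on LNCaP (12.0-fold higher). VLDLR and CD44 were the only ones past 2-fold, 1 in each pair and both higher. PODXL, SDC1 and SELPLG stayed within 2-fold in both pairs. Among all genes past the filter, 8.58% were past 2-fold higher for PC3-L over PC3-H. For the array labelled LNCaP-AI over LNCaP that share was 5.45%.

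Of 9 proteins listed as substrates of these enzymes 4 had a named probe. SPP1, which encodes osteopontin, a substrate known from mouse Galnt1, was 289 in PC3-L against 36.1 in PC3-H (7.81-fold higher), and 71.0 on the array labelled LNCaP-AI against 33.3 on LNCaP (2.10-fold higher). FN1, which encodes fibronectin, was bright on every array, at 2055 in PC3-L against 1433 in PC3-H and 2389 on the array labelled LNCaP-AI against 1944 on LNCaP. FGF23, the hormone that GALNT3 protects from cleavage, lay between 42.0 and 43.7 on all 4 arrays, close to the array medians. EGFR was within 2-fold in both pairs, with log2 differences of −0.95 and −0.38. FURIN, the protease that cleaves FGF23, had 0.07 and 0.85, and KL, its co-receptor, −0.07 and −0.14. Of 8 genes of the death receptor pathway linked to GALNT14, 2 had a named probe, and the receptors were not among them. CFLAR, an inhibitor of caspase-8 activation, was 145 in PC3-L against 59.2 in PC3-H (2.42-fold higher), and 115 on the array labelled LNCaP-AI against 65.9 on LNCaP. FADD, the adaptor of the pathway, had log2 differences of −0.50 and 0.48.

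Most measured epithelial genes were lower on the low-glycan arrays, as GALNT3 was. Of 17 measured, 11 were past 2-fold lower and 0 higher in PC3-L than in PC3-H, with a median log2 difference of −2.10, while 3.77% of all genes were lower and 8.58% higher. On the array labelled LNCaP-AI 11 were lower and 0 higher than on LNCaP, with a median of −1.95, while 5.13% of all genes were lower and 5.45% higher. The adhesion gene EPCAM was 30.1 in PC3-L against 667 in PC3-H and 33.3 on the array labelled LNCaP-AI against 314 on LNCaP, and the tight junction gene CLDN7 was 40.3 against 355 and 41.6 against 486. The desmosomal gene DSP (37.2 against 244, and 33.3 against 583) and the transcription factor gene EHF (33.7 against 202, and 36.5 against 902) had the same order. Some listed genes, named here for a positive difference in 1 pair, did not. In the PC3 pair and then the LNCaP pair, KRT8 had log2 differences of 0.28 and −0.38, and OCLN 0.40 and −1.95. KRT18 had −0.48 and 0.10, and KRT19 −3.22 and 0.05. The listed genes EPCAM, ESRP1, GRHL2 and CLDN4 lay below the 40th percentile on both low-glycan arrays, and DSP on the array labelled LNCaP-AI alone. Like GALNT3, they passed the filter there through the high-glycan array, so they could be counted only as lower. The list and GALNT3 were chosen with these values known, so the shared direction is a description.

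Several mesenchymal genes were higher on the low-glycan arrays, as GALNT14 was. Of 12, 5 were past 2-fold higher and 1 lower in the PC3 pair (median 0.64), against 8.58% and 3.77% of all genes. In the LNCaP pair 7 were higher and 0 lower (median 1.82), against 5.45% and 5.13% of all genes. CCN2, a matricellular gene, had log2 differences of 3.45 and 3.54, and VIM, which encodes vimentin, 3.10 and 4.20. The receptor kinase AXL had 0.56 and 4.39. VIM and AXL were also among the PC3 markers of the line check, and AXL was 609 in PC3-H against 47.4 on LNCaP. THBS1 was the 1 gene lower in the PC3 pair, at −2.07, and was 3.59 in the LNCaP pair. ZEB1 and SNAI2, of the families known to bind the E-box printed above, were chosen for mention after their values were seen. Both were higher on the low-glycan arrays. ZEB1 was 225 in PC3-L against 38.2 in PC3-H and 157 on the array labelled LNCaP-AI against 36.5 on LNCaP. SNAI2 was 634 in PC3-L against 93.5 in PC3-H and 468 on the array labelled LNCaP-AI against 57.6 on LNCaP. The other measured genes of these families in the list were within 2-fold in both pairs, ZEB2 at log2 differences of 0.72 and 0.95 and SNAI1 at −0.49 and −0.37, lower on both low-glycan arrays. That E-box was in windows of both GALNT3, lower on those arrays, and GALNT14, higher on them, and its hexamer was in 20.6% of all windows. Whether any of these factors acts on either gene was not tested.

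**Figure D4:**
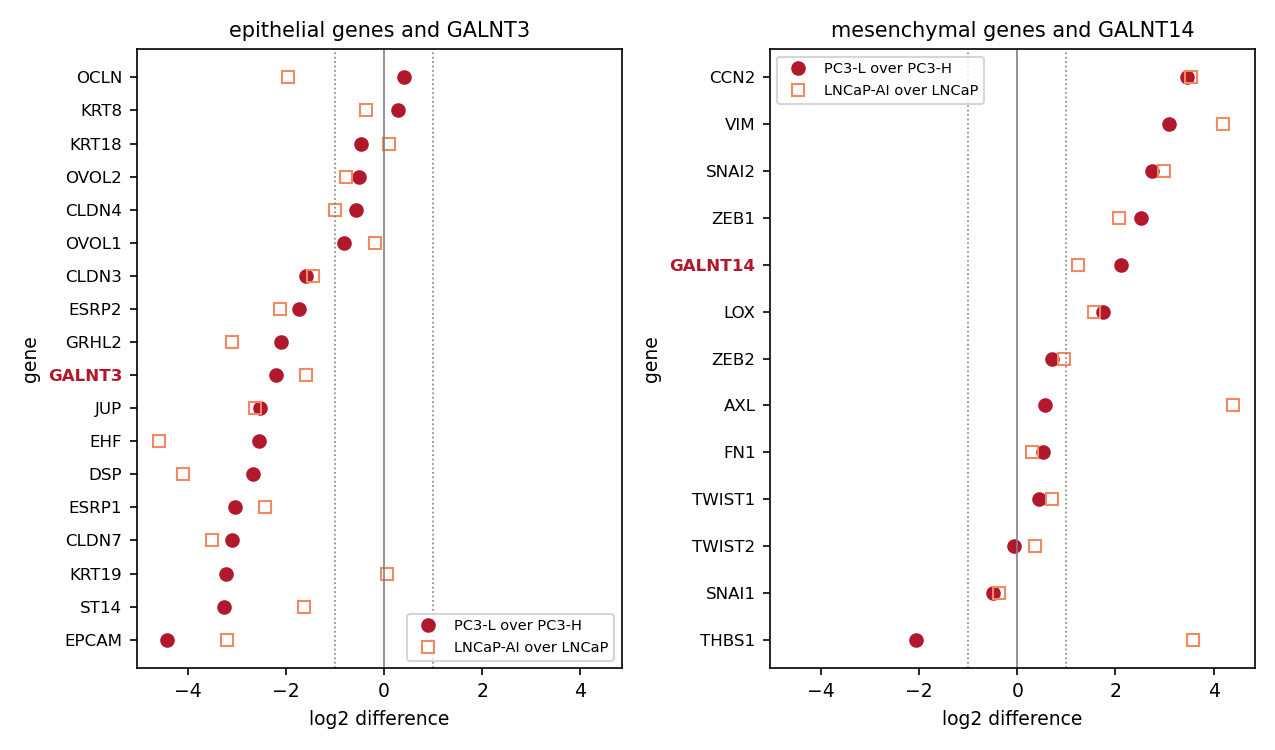
Log2 differences (across) of epithelial genes with GALNT3 (left) and of mesenchymal genes with GALNT14 (right), ordered by the PC3 pair; filled circles are PC3-L over PC3-H, open squares the array labelled LNCaP-AI over LNCaP, and dotted lines mark 2-fold. GALNT3 (−2.19 and −1.59) falls among the epithelial genes that are past 2-fold lower in both pairs, and GALNT14 (2.10 and 1.24) near LOX and ZEB1.

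The genes closest in pattern to each of the 4 were found by the root mean square difference between log2 profiles centred on their own mean, over 4 arrays and 10946 genes. With 4 arrays many genes come close, and the measure describes these arrays only. For GALNT3 they were LSR (0.05), STXBP2 (0.07) and F8A1 (0.08). LSR had intensities of 71.4 in PC3-L against 333 in PC3-H, and 64.3 on the array labelled LNCaP-AI against 203 on LNCaP. For GALNT14 they were PHACTR2 (0.06), RASA2 (0.08) and CEP170 (0.09), for GALNT6 EYA4 (0.07), TPD52L2 (0.09) and CACHD1 (0.11), and for GALNT1 ZNF506 (0.04), TSEN15 (0.06) and CENPU (0.07). Among the 4 themselves the closest were GALNT1 and GALNT14, at 0.68, and the farthest GALNT3 and GALNT14, at 1.83.

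The nearest measured genes along the chromosome were all within 2-fold in both pairs. GALNT3 and GALNT14 are both on chromosome 2, GALNT6 is on chromosome 12 and GALNT1 on chromosome 18. CSRNP3 and LOC100506124, on either side of GALNT3, had log2 differences of −0.01 and 0.12 in the PC3 pair and 0.14 and 0.06 in the LNCaP pair, at intensities between 24.8 and 32.6. CAPN13 and CAPN14, beside GALNT14, had −0.05 and 0.16 in the PC3 pair and −0.89 and 0.29 in the LNCaP pair. BIN2 and FIGNL2, beside GALNT6, had −0.26 and 0.19, then 0.19 and 0.06. INO80C, beside GALNT1, had 0.62 and −0.26, the signs of GALNT1 at a smaller size, and MIR3975 on the other side had −0.15 and −0.11. All but INO80C and CAPN13 were dim on every array, which limits what a difference there can show.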

How the data were processed

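Affymetrix whole-transcript arrays, 1 per culture, measured total RNA of 4 human prostate cancer cultures after ISOGEN II extraction and biotin labelling with the WT Terminal Labeling Kit, per the labels' protocols. The authors deposited linear intensity values, between 17.6 and 11188, as the values show; probe summary, background correction and normalization are not given in the sources used here. GeneSpring GX 12.6 is named for the comparisons, per the series' design text, and its false discovery threshold cannot be applied with 1 array per group. Array medians lay between 39.8 and 41.2, and the number of arrays limits the precision.

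The platform annotation gave 1 gene symbol to 14952 of 37934 probes, several to 0 and none to 22982; all 14006 symbols matched RefSeq's gene table (GRCh38.p14). For a gene with several probes, the one with the highest mean stood for it. Differences are of log2(intensity + 1), over genes whose higher value of the pair reached the 40th percentile of its array, and a difference of 2-fold or more was counted. Sample groups came from titles, glycan labels from source names. PC3-L and LNCaP-AI were compared with PC3-H and LNCaP in limma 3.58.1 (R 4.3.3) with the line as a covariate. The test was two-sided, with Benjamini-Hochberg at 0.05, over genes reaching the 40th percentile of all values. The fit was run on simulated data whose arrays followed the labelled lines. That check does not cover an array that goes against its label. The genes, lists and tests were chosen with earlier results of these data known. Genes named are the 4, the other GALNT family genes, up to 4 genes past 2-fold from each other list, line markers, the 3 closest in pattern and the nearest measured neighbours; others are said to be so where named. Alternatives were the pseudocount, filter, normalization, probe rule, fold limit, opposite labelling of the PC3 pair, the fit's covariate and variance trend, leaving out arrays and, added after seeing the data, removal of a trend with gene length and PC3-L in place of the array labelled LNCaP-AI.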

Additional observations from a re-analysis of the deposited data

Results flagged for a closer look

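Of 86 genes of the family and the lists with a named probe, 77 passed the filter in both pairs and 8 (10.4%) went opposite ways in the 2 pairs by over 1.3-fold each, against 8.28% of all 10755 genes past it. At a 1.5-fold limit it was 3 of them (3.9%), against 3.27% of all genes, so these shares are near the background. The 1.3-fold limit and the genes examined were revised after the values were seen. The difference between the pairs was not tested, since each pair has 1 array a side, and the array labelled LNCaP-AI goes against its line label. GALNT1 had a log2 difference of 1.51 for PC3-L over PC3-H and −0.55 for the array labelled LNCaP-AI over LNCaP. GALNT11 had 0.55 and −0.41. GFPT1 had 0.55 and −1.08, and UAP1 1.62 and −1.32. SDC1, a syndecan, had −0.73 and 0.64, and FADD −0.50 and 0.48. The tight junction gene OCLN had 0.40 and −1.95, and THBS1 had −2.07 and 3.59.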

How the results depend on the processing

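The counts of the 4 genes past 2-fold stayed at 3 in each pair under every alternative run. Some alternatives could not change them, since each gene had 1 probe and passed the filter. The opposite labelling only turned the signs, and the PC3 pair then had 1 higher and 2 lower. Without the opposite labelling and the exchange of arrays, GALNT3 lay between −2.26 and −1.80 in the PC3 pair and between −1.63 and −1.22 in the LNCaP pair, and GALNT14 between 1.73 and 2.15 and between 1.03 and 1.26. With the PC3 pair labelled by the free-text descriptions, the log2 differences were by construction −1.51 for GALNT1, 2.19 for GALNT3 and −2.10 for GALNT14, and the limma fit gave −1.03, 0.30 and −0.43. A pseudocount of 16 left 3 of 14 family genes past 2-fold in the LNCaP pair, and 906 of 11135 genes in all. A 1.5-fold limit gave 3269 of 11126 genes for PC3 and 2643 of 11135 for the LNCaP pair. The limma fit called 115 genes with an intensity trend. Leaving out 1 array at a time, without the covariate, it called between 0 and 292 genes, 292 without PC3-H and 71 without LNCaP; GALNT1 then lay between −0.10 and 1.06 (−0.10 without PC3-H), GALNT3 between −2.30 and −1.48 with adjusted p between 0.051 and 1.00, GALNT6 between 0.087 without LNCaP and 1.58 without PC3-H, and GALNT14 between 1.36 and 1.98. The lone array of a label is there assumed to vary like the others. With PC3-L in place of the array labelled LNCaP-AI, GALNT1 was 0.36 and GALNT14 1.85. The line covariate pairs the arrays of a line as labelled, and without it the fit also called 0 genes; the labels give no replicate numbers that could pair them otherwise. Values near the floor of the arrays limit what GALNT3's folds can show.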
